A study of Mus musculus with 108 samples.

Results

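Liver RNA of mice labelled Esrrg LKO was compared between night and day. The night group is the 6 libraries of zeitgeber times ZT18 and ZT22, and the day group is the 6 libraries of ZT6 and ZT10, with 3 replicates at each time. Zeitgeber time counts the hours after lights on. These are 12 of the 18 libraries of this genotype, and 12 of the 108 libraries of the series. The other 6 libraries of the genotype, at ZT2 and ZT14, are shown but not compared. All 12 livers came from male mice of the B6 set with diet-induced obesity, fed a high fat and sucrose diet. All 12 also carried the same genotype, which the series' design text describes as a knockout of Esrrg in hepatocytes, so no control genotype enters the comparison and it holds no effect of Esrrg. The strain field reads B6S1/SvImJ, although the titles say B6, and the headers of the deposited table write the genotype as ErrgCre. The labels name neither the Cre driver nor the light and feeding schedule. Whether each replicate is its own animal is not stated, so every p-value rests on a spread among libraries that may be technical.

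Each value is the quantile-normalised number of reads of a transcript, called normalised reads here. Differences are night minus day on the log2(value + 1) scale, given with their standard error (SE). A gene is said to have risen or fallen at night where limma, fitted over 11945 genes, gave a Benjamini-Hochberg adjusted p below 0.05. Of these genes 326 rose (2.73%) and 288 fell (2.41%), 5.14% in all, and the difference was at least 2-fold for 74 of the rises (0.62%) and 57 of the falls (0.477%). The night and day values did not overlap for 201 genes higher at night (1.68%) and 176 lower at night (1.47%), 377 in all (3.16%), of which 319 also passed (2.67% of all genes). An unadjusted p below 0.05 was found for 2190 genes (18.33%). The median difference over all genes was 0.0049.

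Esrrg, which encodes the orphan nuclear receptor ERR gamma, lies at chr1:187651758-188214885 (mm10). It was read at 7.97, 15.2 and 17.6 normalised reads at ZT18 and 11.1, 10.25 and 18.7 at ZT22. By day it was at 23.0, 8.78 and 25.0 at ZT6 and 24.2, 28.7 and 39.4 at ZT10. The groups overlapped through ZT6 replicate 2, and the difference of −0.78 ± 0.29 did not pass (limma adjusted p = 0.165). Without that library it was −1.005 and passed (adjusted p = 0.0481). A value per transcript does not show whether an exon is missing, and the Esrrg LKO set has no control libraries, so the loss of the gene was not checked. In the wild-type B6 libraries set side by side below, normalised separately, Esrrg was at 4.56 to 48.5 at night (median 25.0). By day it was at 21.8 to 54.4 there (median 32.3), a difference of −0.74 that was not tested.

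Some libraries stood apart. In ZT10 replicate 3, 12 of 18 clock genes were nearer to the mean of ZT14 than to that of the other ZT10 libraries; it held Dbp at 92.0, against 342.1 and 339.7 in the other ZT10 libraries. ZT22 replicate 1 had the lowest array weight of the 12 (0.562, where 1 is average), with Fasn at 641 and Srebf1 at 454, the lowest of either group. Without both, 328 genes rose and 316 fell. All 11 hepatocyte markers tested were abundant and none passed in limma (summed 492220 to 604430 normalised reads at night and 499720 to 778390 by day), 2 of them with an unadjusted p below 0.05. None of 12 Kupffer cell markers, 8 of recruited macrophages, 4 of neutrophils, 2 of lymphocytes or 7 of erythroid cells passed in limma at night against day. An unadjusted p below 0.05 was found for 2 Kupffer cell, 2 recruited macrophage and 1 neutrophil marker, against 18.33% of all genes. Differences were positive for 11 of the 12 Kupffer cell, all 8 recruited macrophage, all 4 neutrophil and 6 of the 7 erythroid markers. They were also positive for 11 of 12 stellate and all 11 endothelial markers, but for only 4 of the 11 hepatocyte markers. Without ZT6, 4 Kupffer cell markers rose. Of 3 adipocyte markers Lipe fell, while the other 2 had positive differences and did not pass, and 1 acinar marker was tested and did not pass. Of 12 stellate markers Pdgfrb rose, of 11 endothelial markers Oit3 and of 3 cholangiocyte markers Sox9. Pdgfrb lost its call when any 1 of 11 of the 12 libraries was left out (adjusted p up to 0.0958) and Oit3 when any 1 of 10 was (up to 0.107), and Sox9 lost it without ZT10 (0.175) or ZT22 (0.0794). In bulk tissue, fewer cells of a type and less RNA per cell cannot be told apart.

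The liver clock is a loop of transcription factors that runs over a day. CLOCK or NPAS2 pairs with BMAL1, the product of Arntl, binds E-box sequences and switches on the Per and Cry genes, whose proteins repress the pair. A second loop runs through the receptors REV-ERB and ROR, which repress and activate Arntl. Another set, the PAR bZIP factors DBP, TEF and HLF, and their competitor NFIL3, acts through D-boxes and carries the rhythm into liver metabolism.

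The promoters of 4 clock genes are shown because they hold the motifs these factors bind and their genes passed the test. Each is the 250 bases before the annotated start site, 5′ to 3′ on the strand of the gene, from RefSeq on GRCm38.p6 (mm10), with motif matches in capitals. Ciart (chr3:95882229-95882478, minus strand) has 3 E-boxes CACGTG that begin 116, 58 and 44 bases before the start site. Tef (chr15:81811164-81811413, plus strand) has 1 E-box that begins 138 bases before it. Cry1 (chr10:85185055-85185304, minus strand) has the related E-prime-box, AACGTG here, 79 bases before the start site and an E-box 60 bases before it. Per3 (chr4:151044666-151044915, minus strand) has the D-box TTATGTAA at 205 and 158 bases before it.
Ciart: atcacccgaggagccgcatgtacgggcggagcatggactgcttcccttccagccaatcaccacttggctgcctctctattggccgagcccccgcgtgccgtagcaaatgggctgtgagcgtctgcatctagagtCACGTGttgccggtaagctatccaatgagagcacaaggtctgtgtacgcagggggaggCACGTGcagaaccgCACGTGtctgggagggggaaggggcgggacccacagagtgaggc
Tef: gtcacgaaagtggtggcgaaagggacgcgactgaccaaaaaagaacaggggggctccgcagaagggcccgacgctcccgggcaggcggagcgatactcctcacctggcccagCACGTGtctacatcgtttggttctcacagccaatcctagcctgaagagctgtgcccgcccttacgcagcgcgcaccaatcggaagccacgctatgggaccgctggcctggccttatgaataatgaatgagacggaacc
Cry1: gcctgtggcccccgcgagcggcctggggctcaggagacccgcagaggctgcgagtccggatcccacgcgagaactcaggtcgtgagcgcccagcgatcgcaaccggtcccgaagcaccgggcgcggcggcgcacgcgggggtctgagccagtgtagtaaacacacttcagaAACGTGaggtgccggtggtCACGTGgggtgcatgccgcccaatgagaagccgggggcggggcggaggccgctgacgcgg
Per3: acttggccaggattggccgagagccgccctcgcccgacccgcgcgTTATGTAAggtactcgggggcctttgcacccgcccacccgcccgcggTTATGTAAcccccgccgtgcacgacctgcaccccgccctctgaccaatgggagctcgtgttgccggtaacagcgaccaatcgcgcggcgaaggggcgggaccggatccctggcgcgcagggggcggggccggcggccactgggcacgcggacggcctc

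Of the 94 genes named by rule, 76 had such a window. Among the 16 clock genes with a window, the E-box CACGTG, its own reverse complement, was in 5 (Bhlhe41, Ciart, Cry1, Per1 and Tef). It was in 6.02% of all 32851 windows. The E-prime-box CACGTT, searched on both strands, was in 3 (Cry1, Cry2 and Nr1d1), against 3.85% of windows. The D-box TTATGTAA was in Per3 alone of the 16, against 0.819% of windows. The ROR element, AANTN directly before GGTCA (0.493% of windows), and the ERR element TCAAGGTCA (0.387%) were in none of the 16. The window of Rora, 1 of the 16, lies before another start site, 636055 bases from that of the tested transcript. It held none of these motifs. Genes with an E-box lay on both sides of the comparison, since Ciart and Tef fell at night and Cry1 rose. A match of letters is a description and not a bound site.

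The activators of the clock were higher at night. All 3 measured members rose, where 2.73% of all genes did. For each of them every night library lay above every day library, as for 1.68% of all genes. Npas2 (chr1:39194272-39363240), the partner of BMAL1 that can stand in for CLOCK, was at 45.9, 31.3 and 29.6 normalised reads at ZT18 and 67.9, 33.1 and 41.7 at ZT22. By day it was listed at 0 in all 3 ZT6 libraries and was at 0.663, 1.17 and 1.46 at ZT10. Its difference of 4.83 ± 0.29 (limma adjusted p = 3.07e-06) was the largest rise, and its size depends on the constant added, at 5.51 with 0.5 and 3.03 with 5. Arntl (chr7:113207511-113314126) was at 159 to 206 normalised reads at night (median 197) and 5.86 to 55.8 by day (median 11.03). It rose by 3.65 ± 0.30 (adjusted p = 2.1e-05), and its highest day value was in ZT10 replicate 3. Clock itself was at 651 to 785 at night (median 693) and 292 to 467 by day (median 323), a rise of 1.06 ± 0.10 (adjusted p = 5.52e-05).

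**Figure D1:**
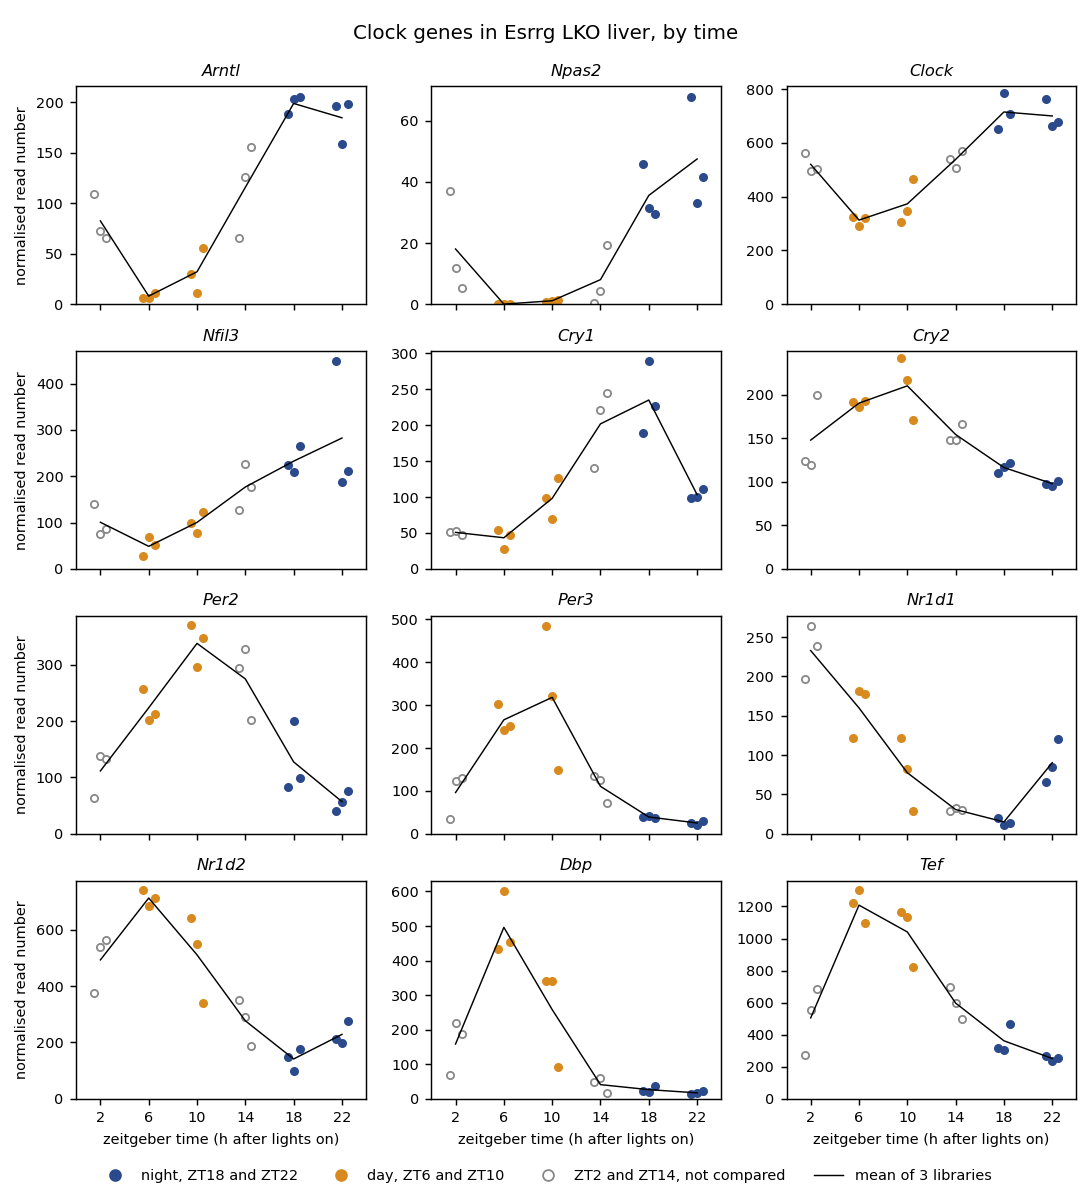
Normalised reads of 12 clock genes against zeitgeber time in hours; each point is 1 library, blue for night, orange for day and open grey for ZT2 and ZT14, with a line through the means of 3 libraries. Arntl, Npas2 and Clock are high at ZT18 and ZT22, and Per3, Dbp and Tef at ZT6 and ZT10, while Nr1d1 differs between the times within a group.

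Of the 6 repressors 4 fell at night and 1 rose, where 2.41% and 2.73% of all genes did. Per3, a period gene, fell to 19.95 to 41.0 normalised reads at night (median 34.1), against 149 to 484 by day (median 277), a difference of −3.10 ± 0.22 (limma adjusted p = 9.13e-06). Ciart, a repressor of the CLOCK and BMAL1 pair also called Chrono, was at 0 to 11.5 at night (median 4.01) and 27.1 to 51.0 by day (median 42.9), a difference of −3.43 ± 0.52 (adjusted p = 0.00173). Per2, another period gene, was at 40.01 to 200.6 at night and 201.5 to 369.9 by day, groups that almost touched (−1.75 ± 0.20, adjusted p = 0.000211). Cry2 was at 95.4 to 121 at night and 171 to 242 by day (−0.89 ± 0.09, adjusted p = 8.23e-05). Cry1, the other cryptochrome gene, moved the opposite way. Cry1 was at 98.6 to 289 at night (median 149.8) and 28.1 to 126 by day (median 62.1), a rise of 1.28 ± 0.18 (adjusted p = 0.000968), and its ZT22 libraries overlapped its ZT10 libraries. Per1, a period gene that also responds to glucocorticoids, was at 15.8 to 146 at night and 89.7 to 176 by day and did not pass (−1.38 ± 0.38, adjusted p = 0.0565). Its highest night value was in ZT22 replicate 1, and without that library it fell by 1.83 (adjusted p = 6.07e-05). Cry1 lost its call without ZT6 (adjusted p = 0.0758) or ZT18 (0.162).

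Both REV-ERB receptors fell at night, where 2.41% of all genes did, and Rora, an ROR receptor gene, did not pass. Nr1d2, which encodes REV-ERB beta, was at 99.1 to 276 normalised reads at night (median 188) and 340.5 to 742 by day (median 664), a difference of −1.75 ± 0.17 (limma adjusted p = 5.56e-05). Nr1d1, which encodes REV-ERB alpha, was at 20.2, 11.01 and 14.08 at ZT18 and 65.6, 85.1 and 120.45 at ZT22. By day it was at 122, 181 and 177 at ZT6 and 122, 81.8 and 28.7 at ZT10. The night and day libraries overlapped, because Nr1d1 was already high again at ZT22 and was low in ZT10 replicate 3. It fell by 1.47 ± 0.30 (adjusted p = 0.0106), and did not pass without ZT18 (adjusted p = 0.836) or without ZT6 (0.302). Rora was at 681 to 930 at night and 625 to 870 by day (0.21 ± 0.09, adjusted p = 0.255).

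All 6 output factors passed, 5 lower at night and 1 higher, where 2.41% and 2.73% of all genes were. Dbp (chr7:45705247-45710203), the first of the PAR bZIP factors, fell to 21.3, 19.8 and 37.3 normalised reads at ZT18 and 12.5, 17.0 and 20.8 at ZT22, against 435, 601 and 453 at ZT6 and 342.1, 339.7 and 92.0 at ZT10. It had the largest fall of all genes (−3.95 ± 0.29, limma adjusted p = 9.85e-06), and the groups did not overlap even with the low value of ZT10 replicate 3. Tef was at 235 to 464 at night and 822 to 1305 by day (−1.90 ± 0.12, adjusted p = 3.07e-06), and Hlf at 141 to 243 at night and 269.5 to 350.3 by day (−0.70 ± 0.10, adjusted p = 0.00126). The 3 PAR bZIP factors fell together by unequal amounts. Their competitor Nfil3 was at 187 to 448 at night and 27.1 to 124 by day, a rise of 1.86 ± 0.24 (adjusted p = 0.000491). Bhlhe40, an E-box repressor also called Dec1, was at 353 to 503 at night and 558 to 930 by day (−0.73 ± 0.13, adjusted p = 0.00615). Its relative Bhlhe41 was read low in both groups, at 0 to 7.47 at night and 7.47 to 34.1 by day (−2.13 ± 0.45, adjusted p = 0.0139). Bhlhe41 lost its call without ZT6 (adjusted p = 0.325) or ZT18 (0.0597).

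Outside these clock lists, the largest changes included the following genes. Elovl3, an elongase of very long chain fatty acids, was at 1382 to 5592 normalised reads at night (median 2808) and 203.03 to 426 by day (median 298), a rise of 3.15 ± 0.25 (limma adjusted p = 1.46e-05). Clpx, the unfoldase of the mitochondrial protease ClpXP, rose by 2.08 ± 0.15 (adjusted p = 9.68e-06), at 1599 to 2537 at night and 389 to 788 by day. Pitx3, a homeobox factor, was at 18.04 to 92.9 at night and 2.16 to 11.5 by day (3.02 ± 0.37, adjusted p = 0.000353). Its end overlaps that of Elovl3 on the other strand by 9 bases, and the strand setting of the counting is not given, so reads of this gene and of Elovl3 cannot be fully told apart. Spon2, an extracellular matrix protein, and Loxl4, a lysyl oxidase, rose by 2.095 ± 0.27 and 1.87 ± 0.15. Among the falls, Upp2, a uridine phosphorylase, was at 40.8 to 338 at night (median 157) and 1002 to 2669 by day (median 1932), a difference of −3.51 ± 0.43 (adjusted p = 0.000349). Rgs16, which dampens G protein signals, was at 14.7 to 169 at night and 356 to 1239 by day (−3.50 ± 0.34, adjusted p = 6.66e-05). Usp2, a deubiquitinase, was at 6.57 to 55.4 at night and 119 to 250.5 by day (−2.74 ± 0.28, adjusted p = 9.49e-05). Other falls were those of Slc2a5, the fructose transporter GLUT5 (−1.92 ± 0.19), Aacs, which makes acetoacetyl-CoA (−1.93 ± 0.26) and Nrep (−1.93 ± 0.22). The largest rises and falls were chosen for values that do not overlap between the groups, so that separation is no further result.

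**Figure D2:**
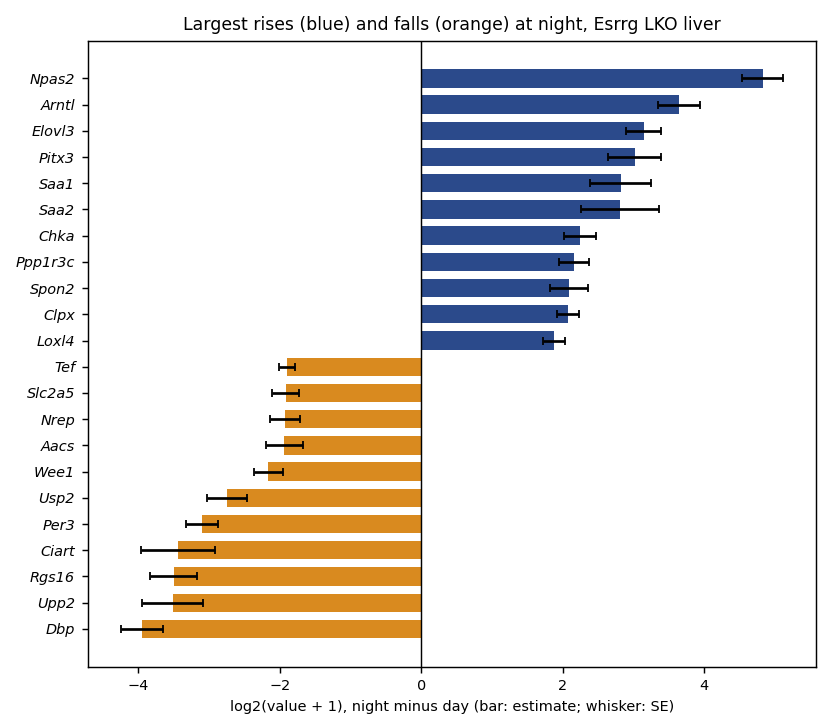
Night minus day difference on the log2(value + 1) scale for 11 of the 12 largest rises (blue) and 11 of the 12 largest falls (orange) among genes that passed with non-overlapping values; bars are estimates and whiskers SE, from 6 night and 6 day libraries. Npas2 at 4.83 and Arntl at 3.65 head the rises, and Dbp at −3.95 the falls.

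Of the 20 measured genes of fatty acid and triglyceride synthesis 7 fell at night and 1 rose, where 2.41% and 2.73% of all genes did, and the median of the list was −0.76. Thrsp, the Spot 14 protein that accompanies lipogenesis, was at 1214, 195 and 1260 normalised reads at ZT18 and 119.6, 992 and 658 at ZT22. By day it was at 3365, 1204 and 2529.8 at ZT6 and 4942, 5033 and 5735 at ZT10. The groups overlapped at ZT6 replicate 2 (−2.65 ± 0.53, limma adjusted p = 0.0106). Elovl6, which elongates palmitate, was at 111 to 736 at night and 622 to 2562 by day (−1.74 ± 0.40, adjusted p = 0.0219). Lpin1, a phosphatidate phosphatase, was at 97.2 to 1048 at night and 500.4 to 1728 by day (−1.47 ± 0.33, adjusted p = 0.0207). Srebf1, which encodes the lipogenic transcription factor SREBP-1, was at 454 to 1755 at night and 1950.5 to 3114 by day (−1.17 ± 0.29, adjusted p = 0.0358). The other falls were Acaca (−0.92), Pklr (−0.92) and Dgat2 (−0.44), and Agpat2, an acyltransferase of phospholipid and triglyceride synthesis, rose by 0.40. Scd1 (−1.75 ± 0.66, adjusted p = 0.168) and Fasn (−1.44 ± 0.46, adjusted p = 0.0966) did not pass, with Fasn at 641 to 6434 at night and 4097 to 13964 by day.

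This list depended on single libraries. The count of falls was 2 without ZT6 replicate 1, 3 without ZT18 replicate 2, 4 without ZT6 replicate 3 or ZT10 replicate 2, and otherwise 5 to 8. The rise of Agpat2 was lost without ZT6 replicate 1, ZT6 replicate 2, ZT18 replicate 1, ZT18 replicate 2 or ZT22 replicate 3. The count of falls was 0 without ZT10, 3 without ZT18, 4 without ZT6 and 8 without ZT22. Srebf1 did not pass when any 1 of 7 of the 12 libraries was left out (adjusted p up to 0.0896), Elovl6 without ZT6 replicate 1 (0.0633) or ZT18 replicate 2 (0.059), and Lpin1 without ZT6 replicate 1 (0.0611). Thrsp did not pass without ZT10 (adjusted p = 0.205), and Elovl6, Lpin1 and Srebf1 did not pass without ZT10 or ZT18 (up to 0.443).

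None of 24 members of cholesterol synthesis and uptake passed in limma, and 1 had an unadjusted p below 0.05, against 18.33% of all genes. Their median was −0.25 and the single differences lay between −0.59 and 0.40. In the bile acid list of 17, 2 fell and 1 rose, where 2.41% and 2.73% of all genes did. Cyp7a1, the rate-limiting enzyme of bile acid synthesis, was at 326 to 1010.5 normalised reads at night (median 353) and 938 to 2113 by day (median 1439), a difference of −1.72 ± 0.24 (limma adjusted p = 0.00101). In 1 night library it lay within the day range. Hsd3b7, which acts after Cyp7a1, rose by 0.57 ± 0.09 (adjusted p = 0.00305). The bile salt importer Slc10a1 fell by 0.38 ± 0.09 (adjusted p = 0.0252), a call lost when any 1 of 6 of the 12 libraries was left out (adjusted p up to 0.0725). Nr0b2, the receptor SHP that represses Cyp7a1, was at 100.3 to 237 at night and 25.0 to 144 by day and did not pass (1.12 ± 0.37, adjusted p = 0.116). Hsd3b7 did not pass without ZT10 (adjusted p = 0.152) or ZT22 (0.0559), and Slc10a1 did not pass without ZT10, ZT18 or ZT22.

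In the 28 genes of fatty acid oxidation and ketogenesis 2 fell and none rose, where 2.41% and 2.73% of all genes did. Ppara, the receptor that drives this programme, was at 1609 to 2061 normalised reads at night and 2476 to 3422 by day (−0.71 ± 0.09, limma adjusted p = 0.000349). Cpt1a, which admits fatty acids to mitochondria, fell by 0.49 ± 0.12 (adjusted p = 0.0266), a call lost when any 1 of 6 of the 12 libraries was left out (adjusted p up to 0.0679). Of 16 lipid droplet and lipolysis genes, Pnpla2, the triglyceride lipase ATGL, fell by 0.66 ± 0.13 (adjusted p = 0.00805) and Lipe, the hormone-sensitive lipase, by 0.57 ± 0.11 (adjusted p = 0.0104). The droplet coat gene Plin5 rose by 0.80 ± 0.20 (adjusted p = 0.0372), and did not pass when any 1 of 10 of the 12 libraries was left out (adjusted p up to 0.098). Of 8 fasting hepatokines 1 rose, Igfbp1, a binding protein of insulin-like growth factors (1.68 ± 0.31, adjusted p = 0.00652). Pnpla2 did not pass without ZT6 (adjusted p = 0.0953) or ZT18 (0.351), nor did Lipe (0.245 and 0.183), and Igfbp1 did not pass without ZT6 (0.225).

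**Figure D3:**
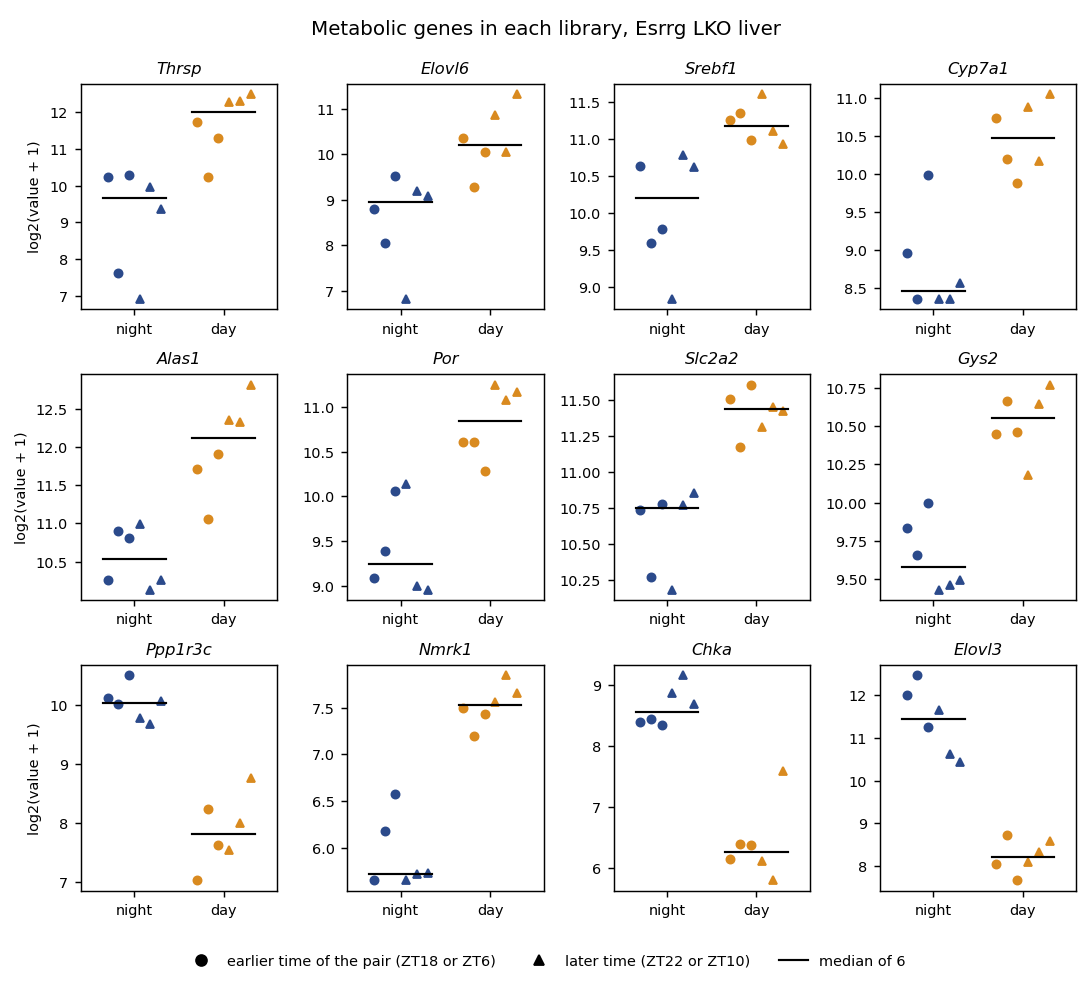
Value of 12 metabolic genes in each library on the log2(value + 1) scale, night left and day right; circles are ZT18 or ZT6, triangles ZT22 or ZT10, and the line is the median of 6. Alas1, Por, Slc2a2, Gys2 and Nmrk1 lie lower at night and Ppp1r3c, Chka and Elovl3 higher without overlap, while Thrsp, Elovl6 and Cyp7a1 overlap.

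In the xenobiotic list 3 of 24 tested genes fell and none rose, where 2.41% and 2.73% of all genes did. Alas1, the rate-limiting enzyme of heme synthesis, was at 1123 to 2041 normalised reads at night (median 1511) and 2133 to 7187 by day (median 4496), a difference of −1.47 ± 0.18 (limma adjusted p = 0.0004). Por, the reductase that passes electrons to microsomal P450 enzymes, was at 495 to 1124 at night (median 607) and 1247 to 2436 by day (median 1868), a difference of −1.40 ± 0.20 (adjusted p = 0.00116). Neither gene overlapped between the groups, and both were higher at ZT10 than at ZT6 in every library. Cyp2a5, whose reads can be split with its near-identical neighbour Cyp2a4, fell by 1.11 ± 0.25 (adjusted p = 0.0193), and did not pass without ZT6 replicate 1 (0.0574) or ZT10 replicate 2 (0.0569). Cyp3a11 (−0.14 ± 0.45), Cyp2c29 (0.18 ± 0.20) and the xenobiotic receptors Nr1i3 (−0.05 ± 0.08) and Nr1i2 (−0.23 ± 0.09) did not pass. The count of falls was 1 without ZT10 and 2 without ZT6, ZT22, ZT6 replicate 1 or ZT10 replicate 2. The call of Por was lost without ZT10 (adjusted p = 0.0619).

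Genes of glycogen and glucose transport moved in both directions. Of 17 genes of glucose entry, glycolysis and glycogen 3 fell and 1 rose, where 2.41% and 2.73% of all genes did. Ppp1r3c, a glycogen-targeting subunit of protein phosphatase 1, was at 813 to 1444 normalised reads at night and 129.5 to 430.4 by day, a rise of 2.16 ± 0.21 (limma adjusted p = 8.23e-05). Gys2, liver glycogen synthase, went the other way, at 690.0 to 1022 at night and 1162 to 1744 by day (−0.88 ± 0.10, adjusted p = 0.000189). Slc2a2, the hepatocyte glucose transporter GLUT2, was at 1162 to 1853 at night and 2310 to 3114 by day (−0.81 ± 0.13, adjusted p = 0.00238), and Pfkfb3, which sets fructose 2,6-bisphosphate, fell by 0.76 ± 0.16 (adjusted p = 0.0139). Of 14 gluconeogenic genes Slc37a4, the glucose-6-phosphate transporter, fell by 0.77 ± 0.12 (adjusted p = 0.00174) and Gpt2, an alanine aminotransferase, by 0.49 ± 0.13 (adjusted p = 0.0391). The call of Gpt2 was lost when any 1 of 8 of the 12 libraries was left out (adjusted p up to 0.0882). Of 14 insulin signalling genes Irs2 rose by 0.85 ± 0.23 (adjusted p = 0.0449), a call lost when any 1 of 9 of the 12 libraries was left out (adjusted p up to 0.118). Pfkfb3 did not pass without any 1 of the 4 times (adjusted p up to 0.0824), and Slc37a4 did not without ZT10 (0.0532).

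Of 11 genes of the methionine cycle and choline use 1 rose and none fell, where 2.73% and 2.41% of all genes did. Chka, choline kinase alpha, was at 322 to 568 normalised reads at night (median 377) and 54.4 to 191 by day (median 75.6), a rise of 2.25 ± 0.23 (limma adjusted p = 9.55e-05). The highest day value of Chka was in ZT10 replicate 3 and the other 5 day libraries were at 54.4 to 82.6. Of 17 tested NAD genes 2 fell and 1 rose. Nmrk1, a nicotinamide riboside kinase, was at 49.1 to 94.5 at night and 146 to 229 by day (−1.61 ± 0.14, adjusted p = 2.32e-05). Nampt, the rate-limiting enzyme of NAD salvage, was at 322 to 535 at night and 537 to 846 by day (−0.73 ± 0.11, adjusted p = 0.00132), and Kynu, of the route from tryptophan, rose by 0.45 ± 0.08 (adjusted p = 0.00354). Nampt did not pass without ZT10 (adjusted p = 0.0511) and Kynu without ZT22 (0.0556).

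**Figure D4:**
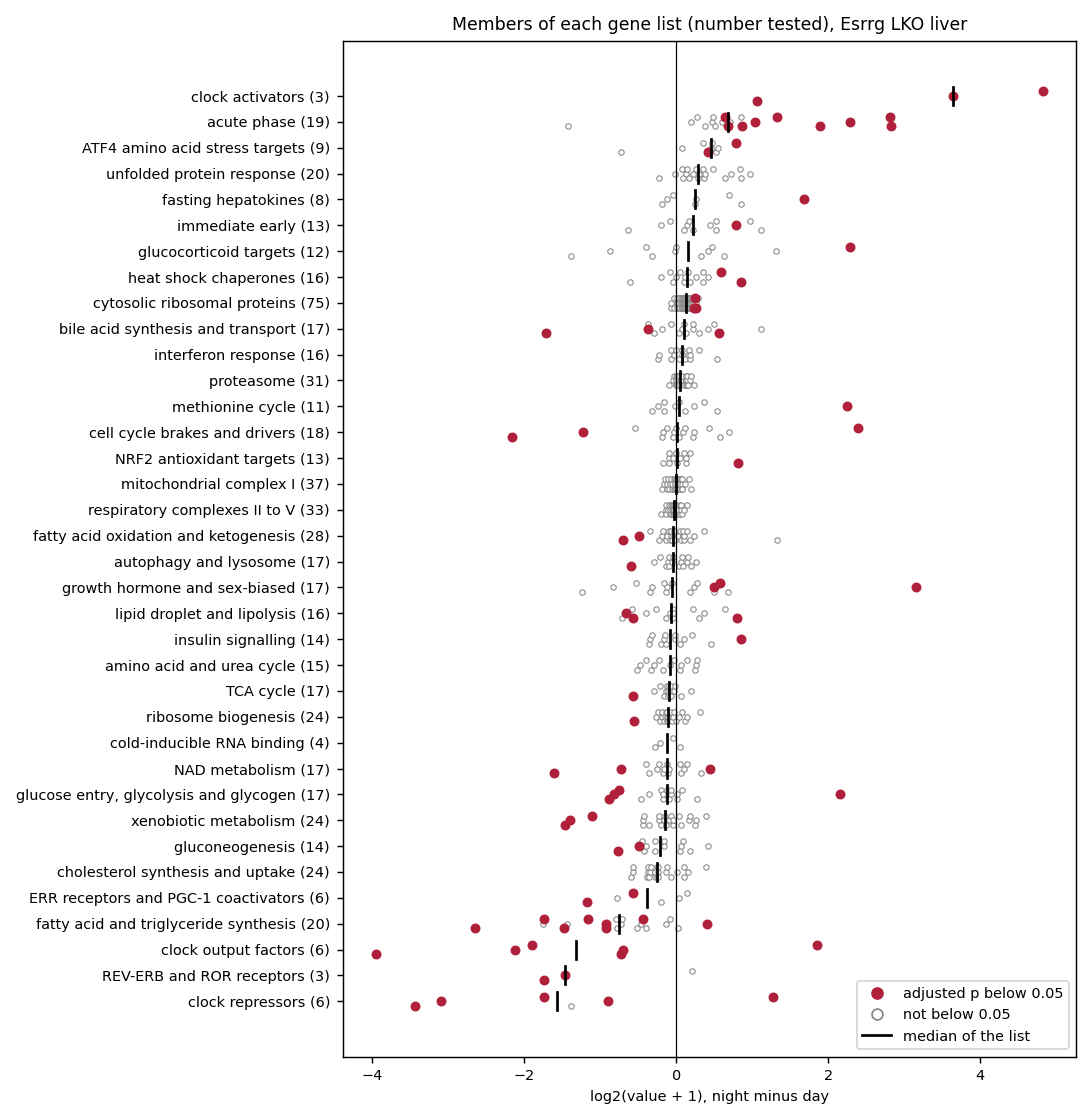
Night minus day difference on the log2(value + 1) scale of every tested member of 36 gene lists, ordered by the median of the list, with the number tested in brackets; red points have an adjusted p below 0.05, open points do not, and the bar is the median. The clock lists lie at both ends, acute phase genes lie to the right and fatty acid synthesis to the left, and the mitochondrial lists lie near 0.

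Acute phase genes encode liver plasma proteins of the inflammatory response. Of 19 members 9 rose at night and none fell, where 2.73% and 2.41% of all genes did. Of the 19 differences 18 were positive, and the median was 0.68. Saa1, a serum amyloid A, was at 2872, 9612.5 and 11943 normalised reads at ZT18 and 1996, 2596 and 782 at ZT22. By day it was at 572, 432 and 740.5 at ZT6 and 153, 662 and 573 at ZT10. Every night value lay above every day value, with the 2 highest at ZT18 (2.82 ± 0.43, limma adjusted p = 0.0017). Its near-identical copy Saa2, with which reads may be split, rose by 2.81 ± 0.55 (adjusted p = 0.00915). Lcn2, which binds bacterial siderophores, was at 298 to 2186 at night and 37.1 to 428 by day (2.29 ± 0.50, adjusted p = 0.0169). The orosomucoid gene Orm2 rose by 1.89 ± 0.46 (adjusted p = 0.0295), a call lost when any 1 of 6 of the 12 libraries was left out (adjusted p up to 0.075), and Orm1 by 1.04 ± 0.20 (adjusted p = 0.00721). The other rises were Saa3 (1.33), Itih3 (0.87) and the fibrinogen chains Fgg (0.68) and Fga (0.64). Hamp, the iron hormone hepcidin, was the 1 member with a negative difference and did not pass (−1.42 ± 0.86, adjusted p = 0.414). Saa1 did not pass without ZT18 (adjusted p = 0.0903), and Saa2 and Lcn2 did not without ZT10 or ZT18 (up to 0.144 for Saa2 and 0.222 for Lcn2).

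The count of acute phase rises was 8 to 11 without any 1 library, and 2 without ZT10, 4 without ZT18 and 8 without ZT6 or ZT22. Summed markers of other cells stood beside it as follows. The 4 tested neutrophil markers summed to 59.1 to 141 normalised reads at night and 22.4 to 151 by day, and none passed. The 8 recruited macrophage markers all had positive differences, none of which passed (summed 658 to 1371 at night and 473 to 1704 by day). For both lists the 3 lowest day sums were the ZT10 libraries. Their part in the acute phase result was not tested. No interferon response gene of 16 passed in limma (1 at an unadjusted p below 0.05, against 18.33% of all genes). Of 12 glucocorticoid targets Lcn2 alone passed.

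**Figure D5:**
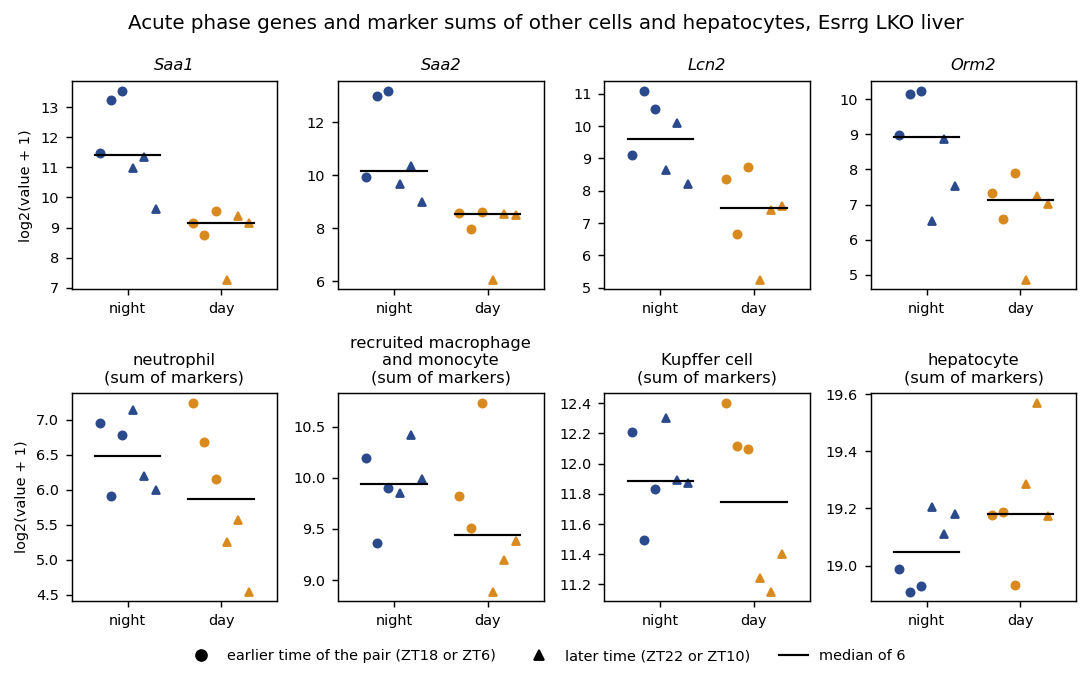
Value of 4 acute phase genes and summed markers of 4 cell types in each library on the log2(value + 1) scale, night left and day right; circles are ZT18 or ZT6, triangles ZT22 or ZT10, and the line is the median of 6. Saa1 and Saa2, named among the largest rises for values that do not overlap, lie higher at night in all 6 libraries. Lcn2, Orm2 and the marker sums, which passed through no such choice, overlap.

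In the stress lists no gene fell and some rose, where 2.73% of all genes rose. All but 2 of 20 unfolded protein response genes had a positive difference (median 0.29), and none passed in limma. An unadjusted p below 0.05 was found for 6 of these 20, against 18.33% of all genes. Without ZT18 replicate 3, 6 of the 20 rose. Of 16 heat shock genes Hspb1 (0.86 ± 0.20, limma adjusted p = 0.0256) and Hsp90aa1 (0.59 ± 0.13, adjusted p = 0.0139) rose. Hspb1 lost its call when any 1 of 6 of the 12 libraries was left out (adjusted p up to 0.0684). Gclc, the catalytic subunit that limits glutathione synthesis, was the 1 of 13 NRF2 targets to pass, at 1832 to 3251 normalised reads at night and 1255 to 2058 by day (0.81 ± 0.15, adjusted p = 0.00542). Of 9 tested targets of ATF4 Ddit4 and Atf4 itself rose (0.79 ± 0.20 and 0.42 ± 0.10), and lost their calls when any 1 of 9 (Ddit4) or 7 (Atf4) of the 12 libraries was left out (adjusted p up to 0.0959 and 0.0865). Of 13 immediate early genes Btg2 rose (0.79 ± 0.17, adjusted p = 0.0161). Without ZT18 Hsp90aa1 was at 0.22 and did not pass (adjusted p = 0.494), nor did it without ZT6 (0.0714) or ZT10 (0.0506). Gclc did not pass without ZT10 (0.0657) or ZT18 (0.118), and Btg2 did not without ZT6, ZT10 or ZT22 (up to 0.324).

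In the cell cycle list of 18 tested genes 1 rose at night and 2 fell, where 2.73% and 2.41% of all genes did. Cdkn1a, the inhibitor p21, was at 174, 77.1 and 143 normalised reads at ZT18 and 373, 155 and 144 at ZT22, against 19.95, 12.7 and 55.4 at ZT6 and 13.1, 33.0 and 100.6 at ZT10. It rose by 2.40 ± 0.46 (limma adjusted p = 0.00839), with an overlap between ZT18 replicate 2 and ZT10 replicate 3. Wee1, a kinase that holds back mitosis and is a known clock target, was at 11.8 to 54.2 at night and 110.5 to 146 by day (−2.16 ± 0.20, adjusted p = 5.54e-05). Gadd45a fell by 1.23 ± 0.32 (adjusted p = 0.0427), a call lost when any 1 of 9 of the 12 libraries was left out (adjusted p up to 0.116). Of 17 tested growth hormone and sex-biased genes 3 rose and none fell. Stat5b, which relays growth hormone, rose by 0.57 ± 0.07 (adjusted p = 0.000491), beside Elovl3. Stat5a rose by 0.50 ± 0.12 (adjusted p = 0.0295), a call lost when any 1 of 8 of the 12 libraries was left out (adjusted p up to 0.0802). Cdkn1a did not pass without ZT6 (adjusted p = 0.056) or ZT22 (0.086).

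The receptors and coactivators around Esrrg differed among themselves. Of 6 tested members 2 fell and none rose, where 2.41% and 2.73% of all genes did. Esrrb was below the filter, with a mean under 10. Esrra, which encodes ERR alpha, was at 84.0 to 109 normalised reads at night and 121 to 167 by day (−0.57 ± 0.10, limma adjusted p = 0.00637). Ppargc1b, the coactivator PGC-1 beta, was at 30.3 to 60.1 at night and 62.7 to 145 by day (−1.18 ± 0.21, adjusted p = 0.00481). Neither overlapped between the groups. Ppargc1a, the coactivator PGC-1 alpha, was at 47.2 to 78.8 at night and 51.0 to 75.9 by day and did not pass (0.03 ± 0.15, adjusted p = 0.941). Pprc1 (−0.20 ± 0.15) and Nrip1 (0.14 ± 0.12) did not pass either. Esrra did not pass without ZT10 or ZT18 (adjusted p up to 0.0619), and Ppargc1b did not without ZT6 (0.0743).

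The mitochondrial lists hold many genes regulated by these receptors. None of 37 complex I genes and none of 33 genes of complexes II to V passed in limma, with 0 and 2 at an unadjusted p below 0.05, where 5.14% of all genes passed and 18.33% were below that unadjusted p, and medians of −0.003 and −0.03. Of 17 TCA cycle genes Pdhb, a subunit of pyruvate dehydrogenase, fell (−0.56 ± 0.08, limma adjusted p = 0.00115). Of 75 cytosolic ribosomal protein genes 71 had positive differences, with a median of 0.13, and 3 rose (Rps29, Rplp1 and Rplp2, by 0.23 to 0.25). That count was 0 to 3 without any 1 library, and pseudogene copies can take reads of these genes. Ncl, nucleolin, fell among 24 genes of ribosome biogenesis (−0.55 ± 0.09, adjusted p = 0.00207), and Ulk1, which starts autophagy, fell among 17 of autophagy and lysosome (−0.59 ± 0.10, adjusted p = 0.00376). None of 15 genes of amino acid and urea metabolism, 31 of the proteasome or 4 cold-inducible RNA-binding genes passed in limma, with 6, 4 and 0 at an unadjusted p below 0.05. Ulk1 did not pass without ZT10 (adjusted p = 0.0568) or ZT18 (0.205).

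Between the day times, 10 genes (0.0837%) differed between ZT10 and ZT6, and 1173 (9.82%) had an unadjusted p below 0.05. Of the 10, 6 were higher at ZT10. Lonrf3, a RING finger gene, was at 133, 157 and 129 normalised reads at ZT10 and 55.2, 46.1 and 58.2 at ZT6 (1.38 ± 0.13, limma adjusted p = 0.00118). Caln1 (1.86 ± 0.28) and the collagen gene Col27a1 (1.47 ± 0.24) were higher too. The 4 that were lower at ZT10 were Cd53, Cd5l, Gas7 and Mpeg1, of which Cd53 is a leukocyte tetraspanin and Cd5l and Mpeg1 are expressed in macrophages. Cd5l was at 561, 531 and 589.7 at ZT10 and 1249.7, 1056 and 1178 at ZT6 (−1.05 ± 0.15, adjusted p = 0.0331). The 12 Kupffer cell markers summed to 2276 to 2704 at ZT10 and 4378 to 5421 at ZT6. Cd5l, named for its fall between these times, is part of that sum, so the sum is no separate result. The part of Kupffer cells in the other 3 falls was not tested. The count was 2 or 3 without any 1 of the ZT6 or ZT10 libraries, ZT18 replicate 3, ZT22 replicate 2 or ZT22 replicate 3, and 16 to 30 without ZT18 replicate 1, ZT18 replicate 2 or ZT22 replicate 1. Between the night times, 729 genes (6.1%) had an unadjusted p below 0.05 between ZT22 and ZT18, and 1 (0.00837%) passed after adjustment in limma.

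Wild-type B6 mice on the same diet were measured at the same times in another table of the series, normalised separately, so their values are set side by side and not tested. One of their day libraries, ZT6 replicate 1, had 5.1% of genes below 1, against 0.117% to 2.06% in the other 11. Of the 18 clock genes 17 had a night minus day difference of the same sign in both tables, some of them of very different size. Per1 differed by −1.38 in Esrrg LKO and −0.03 in wild type, Per2 by −1.75 in Esrrg LKO and −0.05 in wild type, and Cry2 by −0.89 in Esrrg LKO and −0.12 in wild type. These differences are of means on the log2 scale, which single low values can move. The wild-type medians were 28.4 normalised reads at night and 45.4 by day for Per1. They were 132.1 and 125.7 for Per2, and 98.1 and 100.2 for Cry2. Hlf, with −0.70 in Esrrg LKO and 0.07 in wild type, was the exception in sign. Its wild-type median was lower at night (195.7) than by day (211.6), so this exception depends on the summary used. Dbp differed by −3.95 in Esrrg LKO and −3.84 in wild type, and Arntl by 3.65 in Esrrg LKO and 3.10 in wild type. Npas2 had a difference of 4.83 in Esrrg LKO and 0.79 in wild type, where it was at 0.002 to 16.1 normalised reads at night and 0 to 7.06 by day. Nr1d1 differed by −1.47 in Esrrg LKO and by −3.30 in wild type, where night and day did not overlap. Genes outside the clock lists varied. Alas1 differed by −1.47 in Esrrg LKO and −0.01 in wild type, Por by −1.40 and 0.09, and Cyp7a1 by −1.72 and 0.07. Usp2 (−2.74 in Esrrg LKO and −0.01 in wild type) and Wee1 (−2.16 and −0.24) were also nearer to 0 in wild type. The wild-type median of Usp2 was nevertheless 28.45 at night and 51.0 by day, and that of Wee1 56.1 and 72.3. For Alas1 the wild-type medians were 2561 at night and 2670 by day, for Por 590 and 562, and for Cyp7a1 1861 and 1753.5. Rgs16 differed by −3.50 in Esrrg LKO and −3.56 in wild type, and Cdkn1a by 2.40 and 3.57. Chka differed by 2.25 in Esrrg LKO and 1.78 in wild type, and Elovl3 by 3.15 and 1.64. Night and day values of all these genes outside the clock lists overlapped in wild type, while those of Dbp and Nr1d1 did not. These pairs also differ in table, normalisation and the labelled strain, so genotype cannot be told apart from them.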

How the data were processed

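Liver RNA of male mice was sequenced. TruSeq libraries were made from Trizol extracts cleaned on RNeasy columns, per the labels' protocols, and the strand setting is not given in the sources used here. Per the submitters' processing notes, STAR and HOMER were used with the mouse build mm10, with no versions. The deposited signal values are the authors' quantile-normalised read numbers per RefSeq transcript. All libraries of the table have identical sorted values, a total of 10346206 and 27.5% of values at 0, as checked on the file. Quantile normalisation removes library totals, so the depth is unknown, there is no counting interval, and the method hides any shift common to most genes. Without strand, reads of a gene and an overlapping gene on the other strand cannot be told apart (among named genes Bhlhe40, Caln1, Ciart, Cry2, Dbp, Elovl3, Elovl6, Esrra, Esrrg, Gadd45a, Irs2, Lipe, Nr1d1, Pitx3, Rora and Srebf1 have one), and near-identical copies can share reads.

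Values were tested as log2(value + 1). Of 42361 transcripts 91 have no gene name (0.0869% of the signal) and were left out. The transcript with the highest mean stood for each of 25124 symbols, and genes with a mean of at least 10 over the 18 libraries were kept, 11945 in all. A model with 4 time means was fitted to the 12 libraries (R 4.3.3, limma 3.58.1, with a trended eBayes prior) and Benjamini-Hochberg adjustment at 0.05, and the step was tested on simulated data. Night minus day is the mean of ZT18 and ZT22 minus that of ZT6 and ZT10. Named genes were the 12 largest rises and falls among called genes with non-overlapping values, up to 4 called members of each list, all clock and ERR or PGC-1 genes, and up to 4 rises and falls between the times within a group; list members named beside them were chosen after their values were seen. The members and gene lists were chosen with earlier results of these data known. Alternatives were other pseudocounts, filters, designs, variance priors, scalings and covariates, each library or time left out, and 1 added after seeing the data. The tables hold 126 per-sample columns, of which 90 were not used. Genes with no row in the table were not analysed here. Some genes that met these rules are not reported here and were left out of the lists, while the fit and its adjustment ran over all genes.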

Additional observations from a re-analysis of the deposited data

Results flagged for a closer look

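Of 80 groups of 6 libraries checked for 40 genes, 9 held 1 library far from the other 5; the gap to the nearest of them exceeded the critical value of Dixon's test at the 95% level, where chance gives about 1 in 20 groups. In 5 of them the library was ZT10 replicate 3. Dbp was at 91.96 normalised reads in that library and 339.7 to 601 in the other day libraries. Ciart was at 27.109 there and 40.3 to 51.0 in the others. Clock was at 466.8 there and 292 to 345 in the others. Chka was at 191.0 there and 54.4 to 82.6 in the others. Pprc1 was at 84.759 there and 46.1 to 57.4 in the others.

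Saa1 was at 153.26 in ZT10 replicate 1 and 432 to 740.5 in the other day libraries, and Saa2 at 65.794 there and 247 to 393 in the others. Arntl was at 159.03 in ZT22 replicate 2 and 188 to 206 in the other night libraries. Esrrg was at 8.783 in ZT6 replicate 2 and 23.0 to 39.4 in the other day libraries. The cause of these gaps was not tested.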

How the results depend on the processing

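No gene called at night against day changed sign under any of the 31 alternatives. Of the 80 called genes named for night against day, 60 kept their call without any 1 library, 44 lost it without at least 1 time, and 36 kept it under every alternative they were tested in, which for 5 of them was 30 of the 31. The counts of 326 rises and 288 falls became 202 and 168 with no filter on low values, over 22789 genes, 198 and 177 without ZT6, 196 and 121 without ZT10, 154 and 144 without ZT18, and 171 and 164 without ZT22, where fewer libraries enter. Without any 1 library there were 226 to 331 rises and 189 to 293 falls, with the fewest falls without ZT10 replicate 2. Ppargc1a (0.030) ranged from −0.090 to 0.108 without any 1 library, and reversed to −0.030 without ZT10 replicate 2, −0.090 without ZT18 replicate 3, −0.017 without ZT22 replicate 1, −0.000485 without ZT22 replicate 2, −0.088 without ZT6, −0.077 without ZT22 and −0.014 without ZT10 replicate 3 and ZT22 replicate 1.

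The 10 genes between ZT10 and ZT6 became 4 with no filter, with a minimum of 50 or with transcripts summed, 5 with all 18 libraries, 2 with the Mir6236 covariate, 19 with the replicate block and GC trend, 21 with a robust prior, 30 with array weights and 2 to 30 without any 1 library. The 1 gene between ZT22 and ZT18 became 7 with no filter, 2 with all 18 libraries or without ZT10, 0 with the Mir6236 covariate or without ZT6, 3 without ZT10 replicate 3 and ZT22 replicate 1, and 0 to 2 without any 1 library. The cause was not tested. The replicate numbers were not taken to pair the libraries: correlations of deviations ran from −0.16 to 0.36 over 18 same-numbered pairs, 8 of them above 0.1, and 6 of 12 libraries correlated best with their own number. With the replicate block there were 340 rises, 305 falls, 1 gene between ZT22 and ZT18 and 7 between ZT10 and ZT6. With it 5 clock repressors fell (4 without the block), 5 fatty acid synthesis genes fell (7 without), 0 insulin signalling genes rose (1 without) and 1 ribosomal protein gene rose (3 without). Depth is unknown, so precision rests on the 3 replicates a time.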
